A study of Mus musculus with 10 samples.

Results

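Nascent transcription of the genes of the Nodal, BMP and TGF-beta pathways was described in mouse embryonic stem cells with substitutions in Elongin A or without the Polycomb protein Eed. The members were chosen by gene symbol alone, as the ligands, receptors, Smads, Smurfs, Lefty inhibitors, secreted antagonists, latency proteins and Id genes of the pathway. They are 67 of the 24901 genes in the table. Measured by Bru-seq, in which cells take up bromouridine and the labelled RNA is captured and sequenced, their values are intronic RPKM, that is, the density of reads in a gene's introns relative to the reads of the library. Intronic reads mostly come from RNA that has not yet been spliced, and RPKM can be compared between genes because they are scaled by length.

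The 10 samples form 5 groups of 2. EloA_WT holds wild-type Elongin A, a subunit of a factor that helps RNA polymerase II to elongate, and EloA_K754M and EloA_K754R hold methionine or arginine in place of its lysine K754. CJ7_WT is a wild-type line and Eed_null lacks Eed, a protein that the Polycomb complex PRC2 needs to methylate histone H3. All groups were kept with LIF and the inhibitors PD0325901 (1 µM, against MEK) and CHIR99021 (3 µM, against GSK3) and labelled with 2 mM bromouridine for 10 min. The labels do not say whether replicates were separate cultures, so each p-value reflects only how far these samples spread, which may be technical. Their background field reads CCE28 for EloA_WT and Eed_null and CJ7 for the other groups, the genotype field of Eed_null reads EloA null, and the growth protocol names CJ7 throughout. The titles were followed. If the field is right, the line and the substitution cannot be told apart in either comparison with EloA_WT, nor the line and the loss of Eed in the other. Cells had been grown on embryonic fibroblasts that were then depleted, per the growth protocol, while the extraction protocol speaks of feeder-free culture.

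The 6 Elongin A libraries each have a column, with 15145205 to 22492714 intronic reads recovered from the RPKM steps. CJ7_WT and Eed_null are 1 column each, which the table names averages. Their values fall on steps of whole reads like those of single libraries, so they were treated as pooled reads, 49158143 and 40993419 in all. The absolute scale of the read counts is an estimate that could be off by a factor of 2. Of 12 stem cell markers 11 were in the table, none of them was at 0, and they summed to between 180 RPKM in Eed_null and 381 RPKM in EloA_K754M replicate 2. Dppa5a alone stood at 176 RPKM in that library, against 55.1 to 75.9 in the other 5 Elongin A libraries. In CJ7_WT against EloA_WT, 7 of the 11 were higher and 4 were at least 2-fold lower, beside 14% of all genes. Eed itself stood at 7.97 RPKM in Eed_null and 10.0 RPKM in CJ7_WT. Intronic reads check neither a substitution nor a null allele whose lesion the labels do not describe. The level of the faintest genes was not the same in each library. The lower quartile of all genes was 0.110 RPKM in EloA_K754M replicate 2 and between 0.0138 and 0.0498 RPKM in the other 5 libraries. In bulk samples, fewer cells of a type and less RNA per cell cannot be told apart.

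Ligands of this family bind pairs of type I and type II receptor kinases, which phosphorylate Smad proteins. Nodal, activin and TGF-beta signals pass through Smad2 and Smad3, and BMP signals through Smad1, Smad5 and Smad9, all of which act with Smad4. Nodal needs the co-receptor Tdgf1 (Cripto) and induces its own inhibitors Lefty1 and Lefty2, while Smad6 and Smad7 block the pathway from within the cell and are themselves targets of it. In mouse stem cells BMP4 and its Id targets help LIF to hold back differentiation, and Nodal autocrine signalling is active without being required for self-renewal.

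**Figure D1:**
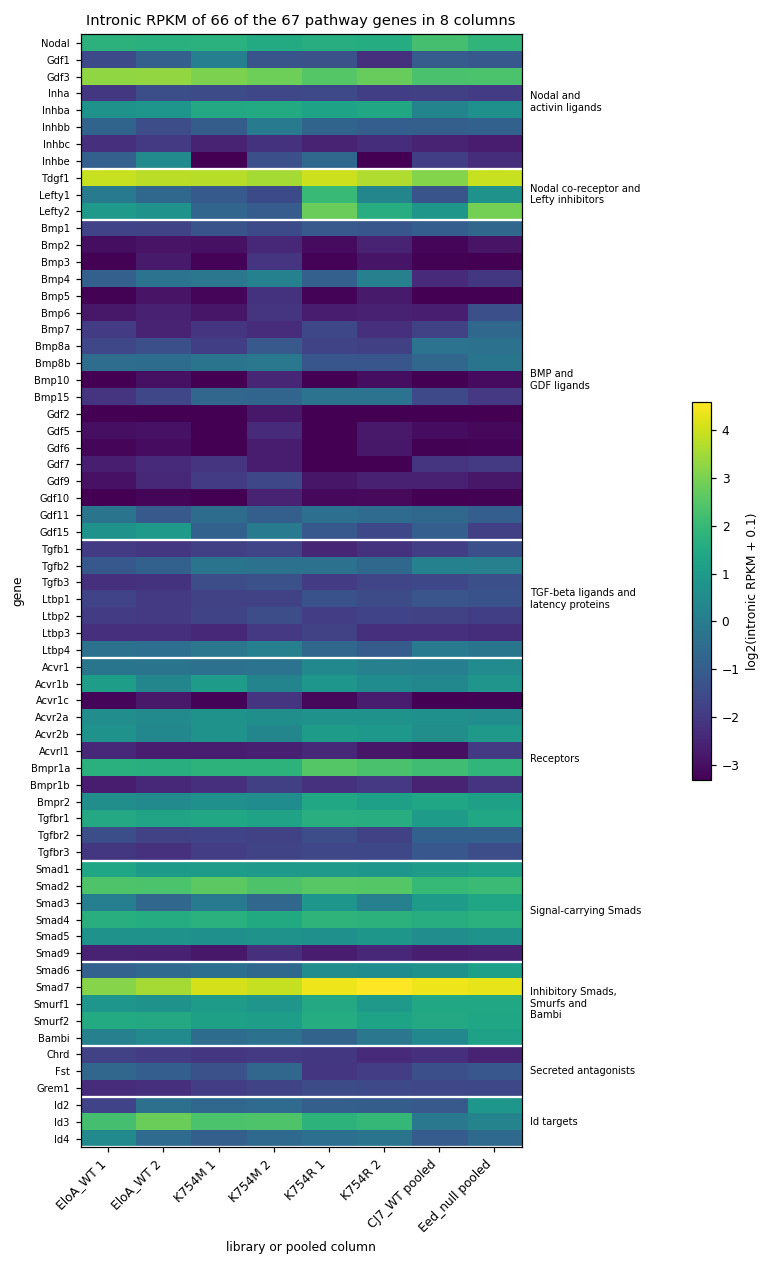
Heat map of log2(intronic RPKM + 0.1) for 66 of the 67 pathway genes (rows, grouped by role) in the 6 Elongin A libraries and the pooled CJ7_WT and Eed_null columns. Averaged over the 6 Elongin A libraries, Smad7, Tdgf1 and Gdf3 are the brightest rows, and most BMP and GDF ligands are dark in every column.

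Averaged over the 6 libraries, the most transcribed members were Smad7 (16.2 RPKM), Tdgf1 (13.6), Gdf3 (7.85), Smad2 (5.44), Id3 (4.87) and Bmpr1a (3.90). Between 18 and 23 of the 67 were at 1 RPKM or above in each library. For the tests a gene needed a mean of at least 0.1 RPKM, which 54 members reached and 13 did not. Gdf9 (0.104 RPKM), Inhbc (0.106) and Bmpr1b (0.118) lay just inside this limit, and Smad9 (0.0719), Bmp6 (0.0665) and Acvrl1 (0.0629) just outside it. The 13 are Acvr1c, Acvrl1, Bmp2, Bmp3, Bmp5, Bmp6, Bmp10, Gdf2, Gdf5, Gdf6, Gdf7, Gdf10 and Smad9. Their median was highest where faint genes as a whole were highest, at 0.0831 RPKM in EloA_K754M replicate 2 against at most 0.0414 RPKM in the other 5 libraries.

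In the comparison of EloA_K754R with EloA_WT, Smad6, Smad7, Bmpr1a and Bmp15 rose and Gdf15 fell. Those are 5 of 54 members with an adjusted p under 0.05, beside 3.48% of all 15161 tested genes. By direction, 4 members were higher and 1 lower, against 0.686% and 2.79% of all genes. Chromosome 11, with the tested members Gdf9 and Smurf2, held 152 of the 423 lower calls and 1 of the 104 higher ones. The X chromosome, with Bmp15, held 32 of the higher calls and 1 of the lower ones. Without the filter on level, and with voom on the recovered reads, Smad6 alone was called, among 160 and 90 genes called in all. With each library's lower quartile subtracted, an alternative chosen after seeing the data, Smad7, Bmp15 and Gdf15 were, among 241. The tests are from limma on log2(RPKM + 0.1), so changes of low genes are understated. The median log2 change was 0.18 over the members tested and −0.14 over all tested genes. That general shift turns on scaling. With equal library medians 50.6% of all 324 calls were higher, against 19.7% of 527 as deposited, and the members called were 5 higher and 1 lower. Of the 54 members 26 had both EloA_K754R values above both EloA_WT values and 13 had both below, beside 18% and 38.8% of all genes. At an unadjusted p under 0.05 there were 19 members, against 25.1% of all genes. Leaving out EloA_WT replicate 1 or 2, EloA_K754M replicate 1 or 2, or EloA_K754R replicate 1 or 2 left 0 members called in each of the 6 fits, all of which have 1 residual degree of freedom fewer.

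EloA_K754M gave no call among the members against EloA_WT by limma, beside 0.218% of all genes (0.0132% higher and 0.204% lower), and none by voom on the recovered reads. There were 11 members at an unadjusted p under 0.05, against 15.4% of all genes. Both EloA_K754M values lay above both EloA_WT values for 18 members and below for 11, beside 17% and 27.2% of all genes. Median log2 changes were 0.05 for the members and −0.06 for all genes. The sign for the members turned with the scaling, at 0.18 with equal library medians and −0.04 with each library's lower quartile subtracted. In the mean of both mutants against EloA_WT, Bmp15 rose and Gdf15 fell, 2 of 54 members beside 1.58% of all genes (0.139% higher and 1.44% lower). Chromosome 11 held 91 of the 218 lower calls and 0 of the 21 higher ones. In that comparison 13 members had all 4 mutant values above both EloA_WT values and 4 had all below, beside 7.64% and 18.8% of all genes. The count of calls was 0 without any 1 of the 6 libraries. With equal library medians it was also 0, and the higher share of all calls went from 8.79% of 239 to 20% of 40. Between EloA_K754M and EloA_K754R no member was called by limma (0.29% of all genes) or by voom, and 12 had an unadjusted p under 0.05 (18.5% of all genes). EloA_K754M lay above EloA_K754R without overlap for 13 members and below it for 19, beside 31.9% and 18.6% of all genes. With equal library medians Lefty2 was called there, among 68 genes called in all.

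**Figure D2:**
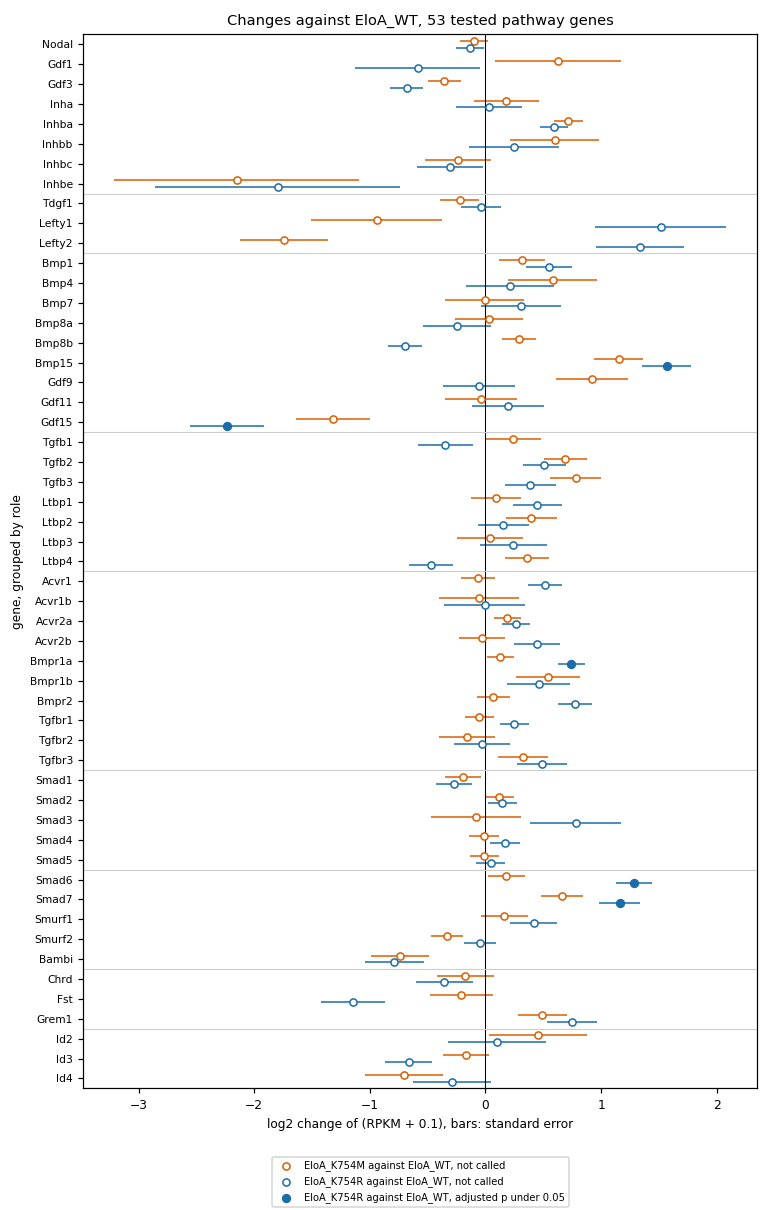
Log2 change of (RPKM + 0.1) against EloA_WT for 53 of the 54 tested members, grouped by role, with EloA_K754M in orange and EloA_K754R in blue, and bars for the standard error. Filled points have an adjusted p under 0.05, which 5 members reached in EloA_K754R and none in EloA_K754M; both series share the EloA_WT libraries.

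Among the Nodal and activin ligands, Nodal itself stood at 3.30 and 3.14 RPKM in EloA_WT, 3.23 and 2.79 in EloA_K754M and 2.98 and 2.87 in EloA_K754R, with CJ7_WT at 4.71 and Eed_null at 3.57. The EloA_WT and EloA_K754M values overlapped, and the EloA_K754R values lay just below EloA_WT (log2 change −0.13). Gdf3, a Nodal-like ligand of stem cells, stood at 9.63 and 9.95 RPKM in EloA_WT, against 8.19 and 7.11 in EloA_K754M, 5.57 and 6.63 in EloA_K754R, 4.93 in CJ7_WT and 4.98 in Eed_null. All mutant values were below EloA_WT without overlap, but the change did not pass in EloA_K754R (−0.68, SE 0.14, adjusted p = 0.0635), in EloA_K754M (−0.36) or in the mean of both (−0.52, adjusted p = 0.0976).

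Inhba, which encodes the subunit of activin A, stood at 1.53 and 1.68 RPKM in EloA_WT, 2.63 and 2.77 in EloA_K754M and 2.34 and 2.61 in EloA_K754R, with CJ7_WT at 1.08 and Eed_null at 1.47. It was higher in all 4 mutant libraries, without overlap, yet missed the threshold in each comparison. The log2 change was 0.72 in EloA_K754M (SE 0.12, adjusted p = 0.0941), 0.59 in EloA_K754R (adjusted p = 0.0618) and 0.66 in the mean of both (adjusted p = 0.0538). It was the member with the smallest p in EloA_K754M. B230303A05Rik and Gm48444 overlap it on the opposite strand, so some of its reads could be theirs. Inhbb, the subunit of activin B, ranged from 0.267 to 0.890 RPKM over the 6 libraries with groups that overlapped, and stood at 0.428 in CJ7_WT and 0.454 in Eed_null. The remaining ligands of this kind were thinly covered. Inhbe had 0 to 5 reads and Gdf1 had 1 to 6 reads in any library, so their large changes carry wide errors.

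**Figure D3:**
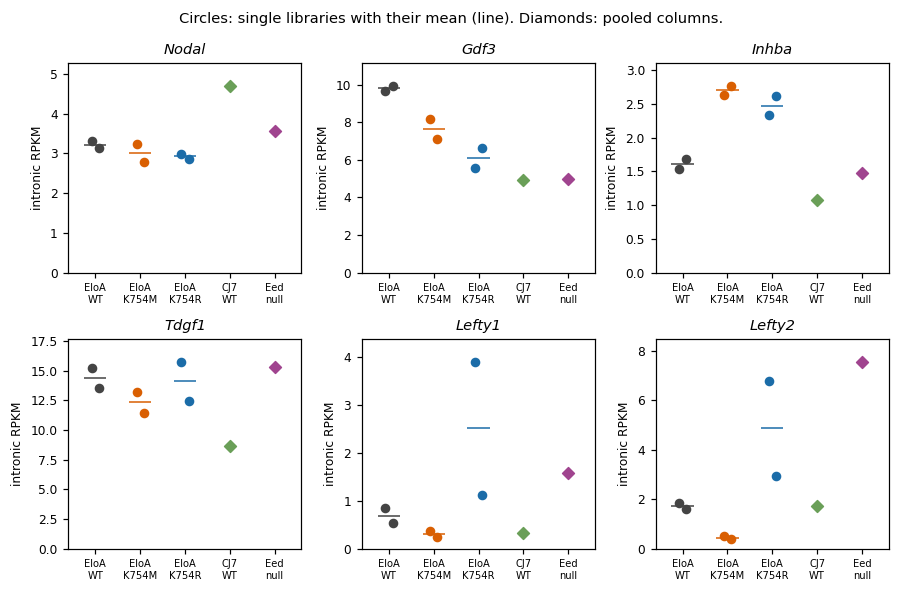
Intronic RPKM of Nodal, Gdf3, Inhba, Tdgf1, Lefty1 and Lefty2 in single libraries (circles, with the mean of each group of 2 as a line) and pooled columns (diamonds). Inhba is higher in all 4 mutant libraries than in EloA_WT, and both Lefty genes are low in EloA_K754M and high in EloA_K754R and Eed_null.

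Tdgf1, the co-receptor of Nodal, stood at 15.3 and 13.6 RPKM in EloA_WT, against 13.2 and 11.4 in EloA_K754M, 15.8 and 12.4 in EloA_K754R, 8.62 in CJ7_WT and 15.3 in Eed_null. Its EloA_K754R values lay on both sides of EloA_WT, and CJ7_WT was the lowest column. Lefty2 stood at 1.85 and 1.59 RPKM in EloA_WT, 0.501 and 0.391 in EloA_K754M and 6.79 and 2.95 in EloA_K754R, with CJ7_WT at 1.73 and Eed_null at 7.56. The groups did not overlap, with EloA_K754M below EloA_WT and EloA_K754R above it. Neither change passed (log2 change −1.74, SE 0.38, adjusted p = 0.130 in EloA_K754M; 1.33, adjusted p = 0.105 in EloA_K754R). The direct difference between the mutants was −3.08 (SE 0.38), the largest among the members, and just missed the threshold (adjusted p = 0.0533).

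Lefty1, its neighbour with nearly the same sequence, had the same order of the 3 groups at lower levels. It stood at 0.862 and 0.529 RPKM in EloA_WT, against 0.376 and 0.245 in EloA_K754M, 3.91 and 1.13 in EloA_K754R, 0.321 in CJ7_WT and 1.58 in Eed_null. These rest on 27 and 14, 9 and 6, and 103 and 40 reads in the 6 libraries. Replicate 1 was above replicate 2 in all 3 groups for both Lefty genes, for Nodal and for Tdgf1. In all, 17 of 54 members had this order and 8 the opposite one, against 26.2% and 19.7% of all genes. Reads shared between Lefty1 and Lefty2 could be split in either way by the counting, so the pair is uncertain and is not 2 independent measurements.

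The BMP and GDF ligands were mostly faint, with 10 of 19 below the limit for testing. Bmp4, the ligand linked to self-renewal, stood at 0.442 and 0.710 RPKM in EloA_WT, 0.785 and 1.01 in EloA_K754M and 0.438 and 0.990 in EloA_K754R, with CJ7_WT at 0.0973 and Eed_null at 0.142. Replicate 2 exceeded replicate 1 in each group, the EloA_K754R values straddled EloA_WT, and both pooled columns were lower than every library. Gm15217 and Gm15222 overlap Bmp4 on the opposite strand, so some of its reads could be theirs. Bmp8b, a BMP of germ cell development, stood at 0.613 and 0.596 RPKM in EloA_WT, against 0.727 and 0.799 in EloA_K754M, 0.339 and 0.332 in EloA_K754R, 0.510 in CJ7_WT and 0.752 in Eed_null. EloA_K754M lay above EloA_WT and EloA_K754R below it. The EloA_K754R change was −0.69 (adjusted p = 0.0648) and the difference between the mutants 0.99 (adjusted p = 0.0695), neither of which passed. Bmp8b has a near copy, Bmp8a, and overlaps other genes on both strands, so its reads are uncertain.

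Gdf15, a distant family member known as a stress-induced hormone, stood at 1.58 and 1.87 RPKM in EloA_WT, 0.447 and 0.873 in EloA_K754M and 0.356 and 0.227 in EloA_K754R, with CJ7_WT at 0.412 and Eed_null at 0.185. Every other column lay below both EloA_WT libraries. Gdf15 fell in EloA_K754R (log2 change −2.24, SE 0.32, adjusted p = 0.0364) and in the mean of both mutants (−1.78, adjusted p = 0.0498). In EloA_K754M the change was −1.32 (adjusted p = 0.154). The gene has short introns, and these values rest on 37 and 37, 8 and 16, and 7 and 6 reads. With quantile normalization the EloA_K754R call ended.

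Bmp15, an oocyte ligand, stood at 0.131 and 0.224 RPKM in EloA_WT, against 0.515 and 0.503 in EloA_K754M, 0.711 and 0.712 in EloA_K754R, 0.234 in CJ7_WT and 0.147 in Eed_null. All 4 mutant libraries were above the 4 remaining columns. Bmp15 rose in EloA_K754R (log2 change 1.57, SE 0.21, adjusted p = 0.0339) and in the mean of both mutants (1.36, adjusted p = 0.0420), and its change in EloA_K754M was 1.15 (adjusted p = 0.0997). It was covered by 9 and 13, 27 and 27, and 41 and 55 reads. Bmp15 lies on the X chromosome, where the 523 tested genes had a median log2 change of 0.26 in EloA_K754R, with 32 called higher and 1 lower, and of 0.00 in EloA_K754M. The part of this shift in the change of Bmp15 was not tested.

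The promoter of Bmp15 is shown as a CpG-poor one among the called members, from 250 bases before to 10 bases after the start given by RefSeq on GRCm38.p6 (chrX:6320715-6320974, minus strand, 5′ to 3′).
Bmp15: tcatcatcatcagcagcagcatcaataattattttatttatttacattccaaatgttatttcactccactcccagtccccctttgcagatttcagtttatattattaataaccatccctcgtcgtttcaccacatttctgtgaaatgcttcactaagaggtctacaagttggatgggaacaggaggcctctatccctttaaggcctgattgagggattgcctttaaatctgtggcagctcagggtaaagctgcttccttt
The full window of 300 bases, which reaches 50 bases past the start, holds 2 CpG pairs, fewer than the median of 7 over all 32851 windows in the RefSeq set. Gdf15 has 2 such windows, with 7 and 1 CpG pairs. The median was 22 over the 59 windows of the 48 members that could be matched. Neither of the Smad-binding sequences searched, GTCTAGAC and GGCGCC on both strands, is in it.

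Of the 7 TGF-beta ligands and latency proteins none was called. In EloA_K754M 5 were higher than EloA_WT without overlap and 0 lower, beside 17% and 27.2% of all genes. This role turned in part on scaling. All 7 had positive changes there as deposited, beside 6464 of all 15161 genes, and with equal library medians. Under quantile normalization, or with each library's lower quartile subtracted, 5 did. In EloA_K754R 5 were higher without overlap and the other 2, Tgfb1 and Ltbp4, lower, beside 18% and 38.8% of all genes. Tgfb2 stood at 0.357 and 0.450 RPKM in EloA_WT, 0.732 and 0.685 in EloA_K754M and 0.690 and 0.543 in EloA_K754R, with CJ7_WT at 1.02 and Eed_null at 0.999. All other columns exceeded EloA_WT. Its log2 change in EloA_K754M was 0.69 (SE 0.19, adjusted p = 0.180). Tgfb3 ranged from 0.115 to 0.123 RPKM in EloA_WT, 0.266 to 0.287 in EloA_K754M and 0.160 to 0.217 in EloA_K754R. Ttll5, Gm37804 and Gm48008 overlap Tgfb3 on the opposite strand, so some of its reads could be theirs. The same holds for Tgfb2, which Gm26169 and Gm29491 overlap. Ltbp4, which holds latent TGF-beta in the matrix, stood at 0.686 and 0.646 RPKM in EloA_WT, against 0.785 and 0.996 in EloA_K754M, 0.517 and 0.395 in EloA_K754R, 0.877 in CJ7_WT and 0.738 in Eed_null. As with Bmp8b, it was higher in EloA_K754M and lower in EloA_K754R (difference between the mutants 0.83, adjusted p = 0.119). Ltbp3 stayed between 0.0872 and 0.188 RPKM in all 8 columns.

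Fibroblasts transcribe several of these matrix-linked members, and fibroblast markers were also higher in the mutants without passing the test in most cases. The 20 embryonic fibroblast markers fixed for this purpose summed to 16.2 and 16.8 RPKM in the EloA_WT libraries, 20.2 to 22.2 in EloA_K754M, 22.5 to 25.2 in EloA_K754R, 23.4 in CJ7_WT and 23.0 in Eed_null. Fn1 alone gave much of these sums. It stood at 8.48 and 9.11 RPKM in EloA_WT, 9.02 to 11.6 in the mutants, 10.2 in CJ7_WT and 6.99 in Eed_null. All 16 that could be tested had positive changes in both mutants (medians 0.40 and 0.56), beside 6464 and 5380 of all 15161 genes. Of the 16, 0 and 1 were called, beside 0.218% and 3.48% of all genes. Twist1 and Lum were each at 0 in 1 EloA_WT library, Col1a2 stood at 0.531 to 1.45 RPKM over the 6 libraries, and none was at 0 in the mutants. Their part in the values of Tgfb2, Tgfb3, Inhba, Grem1 and other members was not tested.

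Of the 10 receptors tested, 8 had both EloA_K754R values above both EloA_WT values and none had both below, beside 18% and 38.8% of all genes. The number with a positive change was 8 with the values as deposited, beside 5380 of all 15161 genes. It was 10 when medians were made equal or under quantile normalization. Equal medians raise the change of every gene in EloA_K754R alike, so that rise is not particular to the receptors. In EloA_K754M 5 were positive as deposited, beside 6464 of all genes. With equal medians or quantile normalization 9 were, so no direction is given there. Bmpr1a, the main type I receptor for BMP4, stood at 3.18 and 3.00 RPKM in EloA_WT, 3.38 and 3.39 in EloA_K754M and 5.54 and 4.94 in EloA_K754R, with CJ7_WT at 4.42 and Eed_null at 3.59. EloA_K754R was the highest group, and all other columns were also above EloA_WT. Bmpr1a rose in EloA_K754R (log2 change 0.74, SE 0.12, adjusted p = 0.0402), while in EloA_K754M the change was 0.13. The difference between the mutants was −0.61 (adjusted p = 0.0950). A gene on the opposite strand, Gm17110, overlaps it, and whether strand was used in counting is not stated.

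The promoter of Bmpr1a is shown because it is a CpG-rich one with a GC-rich Smad element (GGCGCC, in capitals), on GRCm38.p6 from RefSeq (chr14:34502537-34502796, minus strand, 5′ to 3′, from 250 bases before to 10 after the start).
Bmpr1a: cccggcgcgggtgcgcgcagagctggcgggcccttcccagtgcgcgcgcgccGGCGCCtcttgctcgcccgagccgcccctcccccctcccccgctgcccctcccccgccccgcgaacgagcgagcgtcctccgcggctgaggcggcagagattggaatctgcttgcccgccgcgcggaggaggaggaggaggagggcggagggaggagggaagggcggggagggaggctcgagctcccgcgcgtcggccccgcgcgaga
The window of 300 bases holds 48 CpG pairs. GGCGCC is common, with 3898 of 32851 windows (11.9%) holding it on either strand and 16 of the 59 windows of members. A match is a description of the letters and not of binding.

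Bmpr2, the type II partner of Bmpr1a, stood at 1.39 and 1.26 RPKM in EloA_WT, against 1.46 and 1.33 in EloA_K754M, 2.58 and 2.12 in EloA_K754R, 2.44 in CJ7_WT and 2.16 in Eed_null. EloA_K754R and both pooled columns were well above the other 4 libraries. The change in EloA_K754R was 0.78 (SE 0.15) and just missed the threshold (adjusted p = 0.0528), which it passed when library medians were made equal or under quantile normalization. Acvr1, another type I receptor for BMPs, stood at 0.748 and 0.725 RPKM in EloA_WT, 0.696 and 0.705 in EloA_K754M and 1.20 and 0.999 in EloA_K754R, with CJ7_WT at 0.962 and Eed_null at 1.32. Here too EloA_K754M stayed near EloA_WT (log2 change in EloA_K754R 0.52, adjusted p = 0.104).

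The activin and Nodal receptor Acvr2b stood at 1.53 and 1.20 RPKM in EloA_WT, against 1.55 and 1.14 in EloA_K754M, 1.99 and 1.77 in EloA_K754R, 1.40 in CJ7_WT and 1.86 in Eed_null. Tgfbr1, the type I receptor for TGF-beta, stood at 2.65 and 2.40 RPKM in EloA_WT, 2.59 and 2.28 in EloA_K754M and 3.07 and 2.96 in EloA_K754R, with CJ7_WT at 1.97 and Eed_null at 2.62. In both genes EloA_K754M overlapped EloA_WT and EloA_K754R did not. The receptors Acvr1c and Acvrl1 were too faint to test.

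None of the 5 tested Smads that carry the signal was called. Smad2 stood at 5.22 and 4.99 RPKM in EloA_WT, against 6.03 and 5.10 in EloA_K754M, 5.69 and 5.61 in EloA_K754R, 3.90 in CJ7_WT and 4.13 in Eed_null. Smad4 lay between 2.70 and 3.46 RPKM in all 8 columns, Smad1 between 1.67 and 2.44, and Smad5 between 1.36 and 1.71. The log2 changes of these 4 against EloA_WT lay between −0.27 and 0.17 in the mutants. Smad3 varied more, at 0.973 and 0.516 RPKM in EloA_WT, 0.868 and 0.509 in EloA_K754M and 1.68 and 0.994 in EloA_K754R, with CJ7_WT at 1.94 and Eed_null at 2.45. Replicate 1 was well above replicate 2 in each group, and both EloA_K754R values lay above both EloA_WT values.

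Both inhibitory Smads rose in EloA_K754R. Smad6, which acts mainly against BMP receptors, stood at 0.459 and 0.554 RPKM in EloA_WT, against 0.636 and 0.539 in EloA_K754M, 1.39 and 1.36 in EloA_K754R, 1.59 in CJ7_WT and 2.12 in Eed_null. EloA_WT and EloA_K754M overlapped, and EloA_K754R and both pooled columns were above them. Smad6 rose in EloA_K754R by 1.28 on the log2 scale (SE 0.16, adjusted p = 0.0315), the member with the smallest p in this comparison. It was also the one member that voom on the recovered reads called, among 90 genes. The difference between the mutants was −1.10 (adjusted p = 0.0636). Smad6 was covered by 535 to 1938 reads in a library.

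The Smad6 promoter is shown because it holds the palindrome GTCTAGAC (in capitals), a sequence that purified Smad3 and Smad4 select in the test tube (chr9:64022050-64022309 on GRCm38.p6 from RefSeq, minus strand, 5′ to 3′, from 250 bases before to 10 after the start).
Smad6: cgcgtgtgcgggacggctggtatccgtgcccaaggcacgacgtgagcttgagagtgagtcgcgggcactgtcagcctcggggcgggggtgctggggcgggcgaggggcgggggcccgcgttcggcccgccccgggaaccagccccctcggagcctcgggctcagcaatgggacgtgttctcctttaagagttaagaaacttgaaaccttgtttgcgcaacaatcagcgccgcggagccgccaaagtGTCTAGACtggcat
The palindrome begins 4 bases before the start. It is in 70 of 32851 windows (0.213%) and in 1 of the 59 windows of members. No GGCGCC is in the Smad6 window, which holds 31 CpG pairs.

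Smad7, which blocks both branches of the pathway, had the highest mean of the members, and stood at 8.84 and 11.4 RPKM in EloA_WT, 17.1 and 14.8 in EloA_K754M and 21 and 24.2 in EloA_K754R, with CJ7_WT at 21.1 and Eed_null at 19.5. Every other column was above EloA_WT, and EloA_K754R was above EloA_K754M. Smad7 rose in EloA_K754R (log2 change 1.16, SE 0.18, adjusted p = 0.0406). In EloA_K754M the change was 0.66 (adjusted p = 0.186) and in the mean of both mutants 0.91 (adjusted p = 0.0595). For Smad6, Smad7 and Gdf15, CJ7_WT lay near the EloA_K754R values and away from EloA_WT, whereas for Bmp15 it lay near EloA_WT. For Bmpr1a, at 4.42 RPKM, it lay between EloA_WT and EloA_K754R. The Gdf15 value of CJ7_WT was also near that of EloA_K754M replicate 1.

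**Figure D4:**
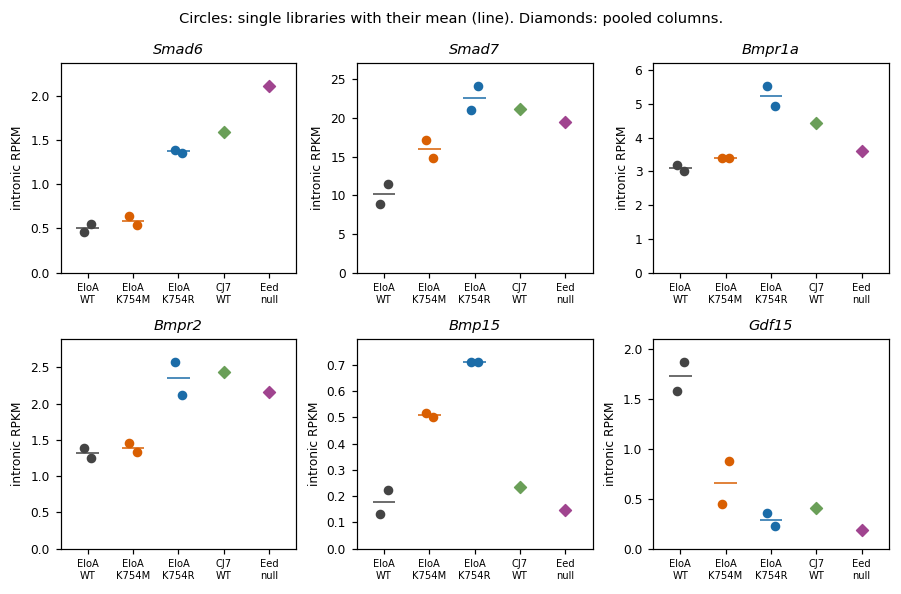
Intronic RPKM of the 5 members called in EloA_K754R against EloA_WT, and of Bmpr2, in single libraries (circles, with the mean of each group of 2 as a line) and pooled columns (diamonds). CJ7_WT sits at 1.59 RPKM for Smad6 and 21.1 RPKM for Smad7, beside the EloA_K754R libraries, and at 0.234 RPKM for Bmp15, beside EloA_WT. For Bmpr1a it lies between EloA_WT and EloA_K754R, at 4.42 RPKM.

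Bambi, a decoy receptor, stood at 0.988 and 1.28 RPKM in EloA_WT, against 0.597 and 0.670 in EloA_K754M, 0.470 and 0.783 in EloA_K754R, 1.20 in CJ7_WT and 2.23 in Eed_null. All 4 mutant libraries were below EloA_WT, but the change did not pass in EloA_K754M (log2 change −0.74, adjusted p = 0.255) or in the mean of both (−0.76, SE 0.22, adjusted p = 0.134). The ubiquitin ligase gene Smurf2 stood at 2.76 and 2.63 RPKM in EloA_WT, 2.15 and 2.08 in EloA_K754M and 2.90 and 2.33 in EloA_K754R, with CJ7_WT at 2.67 and Eed_null at 2.49. It lies on chromosome 11, whose 1314 tested genes had median log2 changes of −0.46 in EloA_K754M and −0.56 in EloA_K754R. That of Smurf2 was −0.33 and −0.05.

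Among the secreted antagonists Fst, which binds activin, stood at 0.517 and 0.413 RPKM in EloA_WT, against 0.288 and 0.512 in EloA_K754M, 0.139 and 0.172 in EloA_K754R, 0.281 in CJ7_WT and 0.342 in Eed_null. EloA_K754R was lowest (log2 change −1.14, adjusted p = 0.0794), on 4.5 and 7.5 reads. Recovered counts need not be whole. Gm47040 overlaps Fst on the opposite strand, so some of its reads could come from there. Grem1, which binds BMPs, stood at 0.0995 and 0.110 RPKM in EloA_WT and at 0.171 to 0.252 RPKM in the 4 mutant libraries, without overlap.

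None of the 3 Id genes, the classic BMP targets, was called. Id3 stood at 4.73 and 7.04 RPKM in EloA_WT, 5.04 and 5.20 in EloA_K754M and 3.41 and 3.81 in EloA_K754R, with CJ7_WT at 0.797 and Eed_null at 1.06. EloA_K754R lay below EloA_WT (log2 change −0.67, adjusted p = 0.118) and the pooled columns lower still. Id2 stood at 0.202 and 0.659 RPKM in EloA_WT, against 0.530 and 0.582 in EloA_K754M, 0.422 and 0.405 in EloA_K754R, 0.366 in CJ7_WT and 1.71 in Eed_null. Its groups overlapped in the Elongin A libraries, on 4 to 11 reads each. Id1 was not analysed here.

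Eed_null was set beside CJ7_WT without a test, since each is 1 pooled column. Both Lefty genes, Id2, Bmp7 and Bmp6 were more than 2-fold higher on the scale of RPKM + 0.1, which makes 5 of 53 members compared, beside 6.12% of 14890 genes. None was more than 2-fold lower on that scale, beside 1.67% of genes (7.78% both ways). Median log2 ratios were 0.14 for the members and 0.11 for all genes. Intervals given here are exact 95% intervals of a ratio of read rates and cover counting error only, since reads without molecular identifiers are not independent molecules. Their width also rests on the uncertain read scale and on taking the averages as pooled reads.

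Lefty2 had 1027 reads in Eed_null and 281 in CJ7_WT, a rate 4.37 times as high (interval 3.83 to 5.01). For Lefty1 the reads were 103 and 25 (4.93, interval 3.16 to 7.97). Nodal itself was lower in Eed_null, at 0.759 of the CJ7_WT rate (interval 0.692 to 0.832), while Tdgf1 was higher, at 1.78 times (interval 1.67 to 1.88). The inhibitors and the co-receptor stood on one side and the ligand on the other.

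Bmp7, a ligand of developing organs, stood at 0.530 RPKM in Eed_null against 0.194 in CJ7_WT, a ratio of 2.74 (interval 2.49 to 3.01). Bmp6 stood at 0.282 against 0.0569 RPKM (4.95, interval 4.44 to 5.52). It is named here after its value was seen, because it lies below the level of 0.5 RPKM asked of named genes. Txndc5 and 4930579J19Rik overlap Bmp6 on the opposite strand, so some of its reads could be theirs. Bambi had a ratio of 1.86 (interval 1.55 to 2.24). The lower side is given for members with at least 0.5 RPKM in the higher column. Gdf11 was at 0.761 (interval 0.576 to 0.999), Bmpr1a at 0.812 (0.794 to 0.831) and Ltbp4 at 0.842 (0.767 to 0.924). Bmpr2 was at 0.883 (0.859 to 0.908) and Smad7 at 0.923 (0.905 to 0.940). These are small beside the changes of the Lefty genes. Below that level, Gdf15 had a lower ratio, 0.449 on 9 against 24 reads (interval 0.184 to 0.9999). Inhbe (0.598) and Bmp15 (0.628), also below it, had intervals that reach past 1. Of 9 primitive endoderm markers 6 could be compared, and 5 of these were higher in Eed_null. More than 2-fold higher were 4, beside 6.12% of all genes, and the 9 summed to 5.31 RPKM against 3.55. Lama1, the marker with the highest level in CJ7_WT, went the other way, at 1.70 RPKM in Eed_null against 2.30. Foxa2 was at 0 in both columns, and Gata6 stood at 0.622 against 0.185 RPKM. Their part in the Bmp6, Bmp7 and other ratios was not tested.

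Id2 stood at 1.71 RPKM in Eed_null and 0.366 in CJ7_WT, on 70 and 18 reads, a ratio of 4.65 (interval 2.74 to 8.30). Id3 had 20 and 18 reads. The Id2 promoter is shown as a CpG-rich promoter, with its GGCGCC in capitals (chr12:25096083-25096342 on GRCm38.p6 from RefSeq, minus strand, 5′ to 3′, from 250 bases before to 10 after the start).
Id2: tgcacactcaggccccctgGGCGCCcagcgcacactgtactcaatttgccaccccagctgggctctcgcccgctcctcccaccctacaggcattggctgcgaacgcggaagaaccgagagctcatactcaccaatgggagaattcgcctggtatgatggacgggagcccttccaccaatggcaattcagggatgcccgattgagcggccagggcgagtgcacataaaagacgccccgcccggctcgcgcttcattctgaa
This window holds 21 CpG pairs over 300 bases, near the median of 22 for windows of members.

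**Figure D5:**
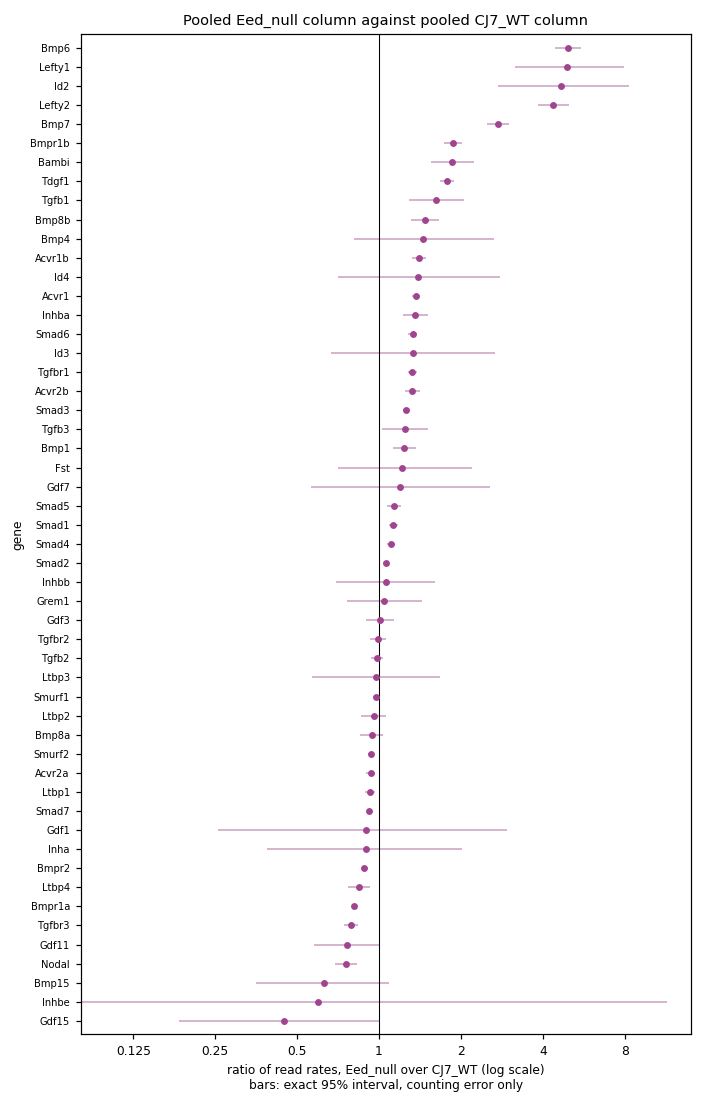
Ratio of read rates, Eed_null over CJ7_WT, on a log axis for 52 of the 53 members compared, with exact 95% intervals that cover counting error only. Bmp6, Lefty1, Id2, Lefty2 and Bmp7 lie above 2, and Gdf15, on 9 and 24 reads, lies at 0.449. Inhbe, on 1 and 2 reads, has the widest interval.

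CJ7_WT and EloA_WT are both labelled wild type, and their members differed as well. Again there is no test. With at least 2-fold as the limit, 5 of 53 members were higher in CJ7_WT and 5 lower, beside 3% and 14% of 14657 genes, and median log2 ratios were 0.04 for the members and −0.20 for all genes. Smad6 (log2 ratio 1.48), Smad3 (1.27), Bmp8a (1.21), Tgfb2 (1.15) and Smad7 (1.06) were higher. Among members with at least 0.5 RPKM in the higher column Bmpr2 (0.83) followed, and Tgfbr3, below that level, stood at 0.92. Id3 (−2.74), Gdf15 (−1.83), Inhbe (−1.81), Bmp4 (−1.78) and Id4 (−1.04) were lower, followed by Gdf3 (−0.97). The Id3 ratio rests on 18 reads against 97 and that of Bmp4 on 23 against 99. That of Inhbe rests on 2 against 7, with an interval of its read ratio from 0.0215 to 1.11. Oxct2a overlaps Bmp8a on the same strand, and other genes overlap Tgfb2, Bmp4 and Id4 on the opposite strand. Bmp4 and the BMP targets Id3 and Id4 were lower in CJ7_WT than in EloA_WT, while both inhibitory Smads, themselves targets of the pathway, were higher. Id2 was nearly level (log2 ratio −0.19, interval of its read ratio 0.424 to 1.90). Whether BMP signalling differs between these lines was not tested. The same ratios for EloA_K754R and EloA_WT use the same EloA_WT libraries and are not independent of these.

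A further list of 57 genes of the same pathways, among them processing enzymes, adaptors, transcription partners and targets, was measured for comparison, and 46 could be tested. In the mean of both mutants none was called by limma, and 10 had an unadjusted p under 0.05, beside 21% of all genes. Positive changes numbered 33 of 46, with a median of 0.10, against 5752 of all 15161 genes, with a median of −0.10. In EloA_K754R 1 of the 46 was called, beside 3.48% of all genes, and in EloA_K754M none, beside 0.218%. The called gene is Usp9x, a deubiquitinase of Smad4 on the X chromosome. It stood at 6.67 and 7.66 RPKM in EloA_WT, 7.99 and 8.21 in EloA_K754M, and 12.3 and 12.3 in EloA_K754R (log2 change in EloA_K754R 0.77, SE 0.12, adjusted p = 0.0421), and its mean change in both mutants was 0.47 (adjusted p = 0.0882).

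Tgif1, a Smad corepressor, stood at 5.89 and 5.58 RPKM in EloA_WT, 7.14 and 7.12 in EloA_K754M and 8.19 and 8.28 in EloA_K754R (mean change 0.41, adjusted p = 0.0882). Fstl1 (0.81, adjusted p = 0.0912) was also higher in all 4 mutant libraries without passing. On the lower side Rgmb, a BMP co-receptor (−0.31, adjusted p = 0.169), Foxh1, the DNA-binding partner of Smad2 at Nodal targets (−1.34, adjusted p = 0.182), Tab1 (−0.48) and Nedd4l (−0.25) had the smallest p. Foxh1 stood at 6.17 and 3.91 RPKM in EloA_WT, 1.13 and 3.12 in EloA_K754M and 1.37 and 2.55 in EloA_K754R, with CJ7_WT at 1.27 and Eed_null at 0.967, with every other column below both EloA_WT libraries.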

How the data were processed

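Bru-seq samples (10, in 5 groups of 2) were analysed from the authors' deposited table of intronic RPKM for 24901 genes in 8 columns. BWA and the build mm9 are named per the submitters' processing notes, without a version. Counter, annotation, strand handling and depth definition were not given in the sources used here. Read counts were recovered from the steps between RPKM values (tolerance 0.01 to 0.06 of a step) for 20817 of the 20817 genes with at least 6 columns above 0. They were put on 1 scale with GENCODE M21 intron lengths, and 11.0% of values do not end on a whole read. The scale of 1 read is thus an estimate.

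For 6 libraries log2(RPKM + 0.1) was fitted in limma 3.58.1 (R 4.3.3) for 3 groups together, with a variance trend, over the 15161 genes averaging 0.1 RPKM or more. P-values are two-sided and adjusted by Benjamini-Hochberg over all of them, and a gene is called at an adjusted p under 0.05. There were 3 residual and 2.76 prior degrees of freedom, and the median replicate SD was 0.195 (log2). The fit was tested on simulated data. Pooled columns were compared by ratio, with a limit of 2-fold and a filter of at least 0.1 RPKM, and read ratios have exact intervals (scipy 1.17.1).

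Members, lists and rules were chosen with earlier results of these data known. Named were called members, otherwise up to 3 a direction by smallest p (2 between the mutants), the 6 largest pooled ratios each way with at least 0.5 RPKM in the higher column, and a fixed set of core members. Other values named beyond this rule were chosen after they were seen. Some genes of these lists are not reported here.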

Additional observations from a re-analysis of the deposited data

How the results depend on the processing

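Among 458 alternatives of the results tested or named, none turned the direction of a single gene's change (medians over a role or over the members can turn with scaling), 347 kept their side of the threshold or their size, 64 lost it, 11 gained it and 36 moved by more. The count of 5 members called in EloA_K754R became 1 without a filter, 1 with voom, 3 with each library's lower quartile subtracted (chosen after seeing the data), 12 with a replicate block and 0 to 0 without any 1 library. The mean of both mutants (2 called) gave 1 with an offset of 0.01 RPKM and 0 without a filter, with equal medians, with quantile normalization, with voom, with the lower quartile subtracted and, as a range, 0 to 0 without any 1 library. A replicate block gave 6 there, 1 (Inhba) in EloA_K754M, 6 between the mutants and 2 among the other pathway genes, Fstl1 being one. The block also called more of all tested genes. It called 1777 in EloA_K754R, against 527 in the main fit, and 1046 in the mean of both, against 239. In EloA_K754M it called 227, against 33, and between the mutants 355, against 44. Equal medians gave 1 between the mutants (Lefty2), among 68 genes called in all. In the ratios, an offset of 1 RPKM left 1 member past 2-fold in Eed_null against CJ7_WT and 1 in CJ7_WT against EloA_WT, and a mean of at least 0.5 RPKM left 3 in Eed_null. The causes were not tested, except that leaving out a library lowers the residual degrees of freedom from 3 to 2. Same-numbered libraries had correlated deviations (0.166, 0.197 and 0.152), but with 2 numbers a group the samples share only a number. The block called Smad3, Lefty2, Bmpr2, Gdf3, Bmp8b, Inhba and Bambi in EloA_K754R beside the 5. Without 1 library the log2 change in EloA_K754R stayed between 1.17 and 1.40 for Smad6, 0.98 and 1.34 for Smad7, 0.66 and 0.82 for Bmpr1a, 1.32 and 1.81 for Bmp15, and −2.47 and −2.0 for Gdf15, with adjusted p from 0.0790 to 0.204. Depth limits members with few reads, such as Inhbe, Gdf1, Inha, Id2, Chrd, Gdf9 and Fst, each with at most 20 reads in any Elongin A library.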
